A study of Mus musculus with 6 samples.

Results

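Serotonin, dopamine and noradrenaline signalling was followed through 34 genes that encode the receptors for these amines, their plasma membrane transporters, the monoamine oxidases, and 2 enzymes of amine synthesis. The genes were set by symbol, and every probe set that the platform annotation gives to 1 of these symbols was taken. This gave 45 probe sets for 26 of the 34 genes, of 45037 probe sets on the array. Htr2a, Drd5, Adra1a, Adra1d, Adra2a, Adra2b, Adrb1 and Adrb3 had no probe set named in the annotation used here and were not analysed. Htr2a and Maob have both been reported as Egr targets, and of this pair Maob could be followed.

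The values came from Affymetrix mouse expression arrays of total RNA from cerebral cortex. They form 2 groups, with 3 arrays labelled as a double knockout of Egr1 and Egr3 set against 3 arrays labelled wild type. Egr1 and Egr3 are zinc finger transcription factors that neurons induce with activity. Strain, age, sex, treatment and the targeted alleles are not given, nor whether arrays within a group represent different animals. The p-values therefore reflect array-to-array spread alone, which may be technical in whole or in part. The title of double knockout replicate 1 names no genotype, unlike those of double knockout replicates 2 and 3, and its group comes from its description.

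Egr3 signal on its brighter probe set was 339, 370 and 507 in double knockout replicates 1, 2 and 3, against 1189, 2670 and 924 in wild type replicates 1, 2 and 3. Egr1 read 2116, 2647 and 2657 with the double knockout label, against 1247, 2054 and 1429.6 in wild type. Egr3 therefore went with the label and Egr1 did not, which a probe set outside a deleted part cannot settle, so the first group is called DKO-labelled below. Double knockout replicate 2 alone carried a female Xist signal, 3140 against at most 42.5 in the other arrays. Eif2s3y, on the Y chromosome, read 0.630 there and 383 to 609 in the other arrays. The DKO-labelled arrays therefore did not all come from 1 animal. The spiked controls of wild type replicate 1 were dim, at a median of 0.411 of the other arrays. The Gapdh control had a 3' over 5' ratio of 0.881 to 0.9497 in the DKO-labelled arrays and 0.806 to 0.873 in wild type, without overlap. The same ratio of the Actb control overlapped, at 1.68 to 1.89 in the DKO-labelled arrays and 1.58 to 1.95 in wild type. The part of these ratios in the results below was not tested.

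Monoamines reach the cortex through axons of brainstem and midbrain neurons and act on receptors that cortical cells make themselves. Most of these receptors couple to G proteins: Htr1a, Htr1b, Htr5a and Adra2c to inhibitory ones that lower cyclic AMP, Htr7 and Drd1 to stimulatory ones that raise it, and Htr2c to those that activate phospholipase C, while Htr3a forms a cation channel. The amines are taken back by Slc6a2, Slc6a3 and Slc6a4, the noradrenaline, dopamine and serotonin transporters, and broken down by the mitochondrial enzymes Maoa and Maob.

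Egr proteins bind GC-rich DNA, with GCGTGGGCG as the classic 9-base site. The 250 bases before each annotated gene start were searched on both strands for GCGTGGGCG and for GCGNGGGCG, which includes it. Windows from RefSeq (GRCm38.p6) were on hand for 26 of the 34 genes. Maob, Htr3a, Htr4, Htr5b, Slc6a2, Adra1a, Adra1d and Adrb3 had no window and were not searched. Of the 26 genes searched, Htr7 alone held GCGTGGGCG, which 0.536% of all 32851 promoter windows hold. Htr7 and Th held GCGNGGGCG, which 4.7% of windows hold. The windows of 4 genes are printed 5' to 3' along the gene's strand: those of Htr7 and Th because they hold a match, that of Htr2a as the reported target without a probe set, and that of Adra2c, the member with the largest difference. Capitals mark a match to GCGNGGGCG read on the opposite strand, and the Htr2a and Adra2c windows hold none.

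Htr7, chr19:36057361-36057610, minus strand: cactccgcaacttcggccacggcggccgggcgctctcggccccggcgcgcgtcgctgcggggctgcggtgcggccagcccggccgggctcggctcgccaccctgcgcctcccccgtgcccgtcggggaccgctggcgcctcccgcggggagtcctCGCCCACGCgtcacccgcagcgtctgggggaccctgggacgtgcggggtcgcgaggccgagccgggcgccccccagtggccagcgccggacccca
Th, chr7:142899996-142900245, minus strand: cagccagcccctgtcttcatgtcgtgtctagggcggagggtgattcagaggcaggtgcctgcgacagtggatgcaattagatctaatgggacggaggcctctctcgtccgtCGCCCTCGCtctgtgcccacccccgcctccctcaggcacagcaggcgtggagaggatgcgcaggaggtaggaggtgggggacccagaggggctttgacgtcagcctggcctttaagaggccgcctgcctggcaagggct
Htr2a, chr14:74640624-74640873, plus strand: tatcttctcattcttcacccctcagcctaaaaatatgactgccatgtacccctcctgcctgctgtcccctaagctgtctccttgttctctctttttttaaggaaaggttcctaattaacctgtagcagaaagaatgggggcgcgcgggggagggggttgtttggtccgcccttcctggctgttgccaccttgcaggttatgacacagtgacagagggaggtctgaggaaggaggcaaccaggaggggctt
Adra2c, chr5:35278316-35278565, plus strand: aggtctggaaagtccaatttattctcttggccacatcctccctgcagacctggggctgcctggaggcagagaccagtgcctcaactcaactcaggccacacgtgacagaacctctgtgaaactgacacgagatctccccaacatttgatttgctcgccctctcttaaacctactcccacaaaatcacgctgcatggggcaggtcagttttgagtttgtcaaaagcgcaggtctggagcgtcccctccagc

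The Htr7 match lay 95 to 87 bases before the annotated start and the Th match 139 to 131 bases before it. The Htr7 window had a GC content of 82.0%, against a median of 52.4% over all windows. Among the 214 windows at least as GC-rich, 3.27% held GCGTGGGCG and 49.1% held GCGNGGGCG. The match is a description of these letters and does not show that a factor binds there.

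No monoamine gene passed the test between the groups. The test was limited to probe sets in the brighter part of the array, those whose average log2 signal exceeded the median probe set's, at a signal of about 36.6, and 16 of the 45 probe sets, for 11 genes, met this. By limma 0 of these 16 had a Benjamini-Hochberg adjusted p under 0.05, where 1.02% of all 22518 tested probe sets did, 0.426% higher and 0.591% lower. At an unadjusted p under 0.05 there were 5 of 16, 1 higher and 4 lower in the DKO-labelled arrays, beside 16.6% of all tested probe sets, 8.26% higher and 8.33% lower. The arrays of the groups did not overlap in 6 of 16, 2 higher and 4 lower, beside 22.3% of all tested probe sets, 11.5% higher and 10.7% lower. The median log2 difference was 0.03 in the 16 and 0.01 in all tested probe sets, and the median size without regard to sign was 0.41 and 0.15. These sizes were not matched for brightness or spread, and 4 of the 16 passed a stricter filter at the 75% quantile. For Htr7 and 1 Adra2c probe set the mean of the DKO-labelled arrays alone lay below the filter, so they were tested through their wild type signal, and these counts support nothing on their own. All fold changes are on the log2(signal + 16) scale, DKO-labelled minus wild type, which understates changes of dim probe sets.

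**Figure D1:**
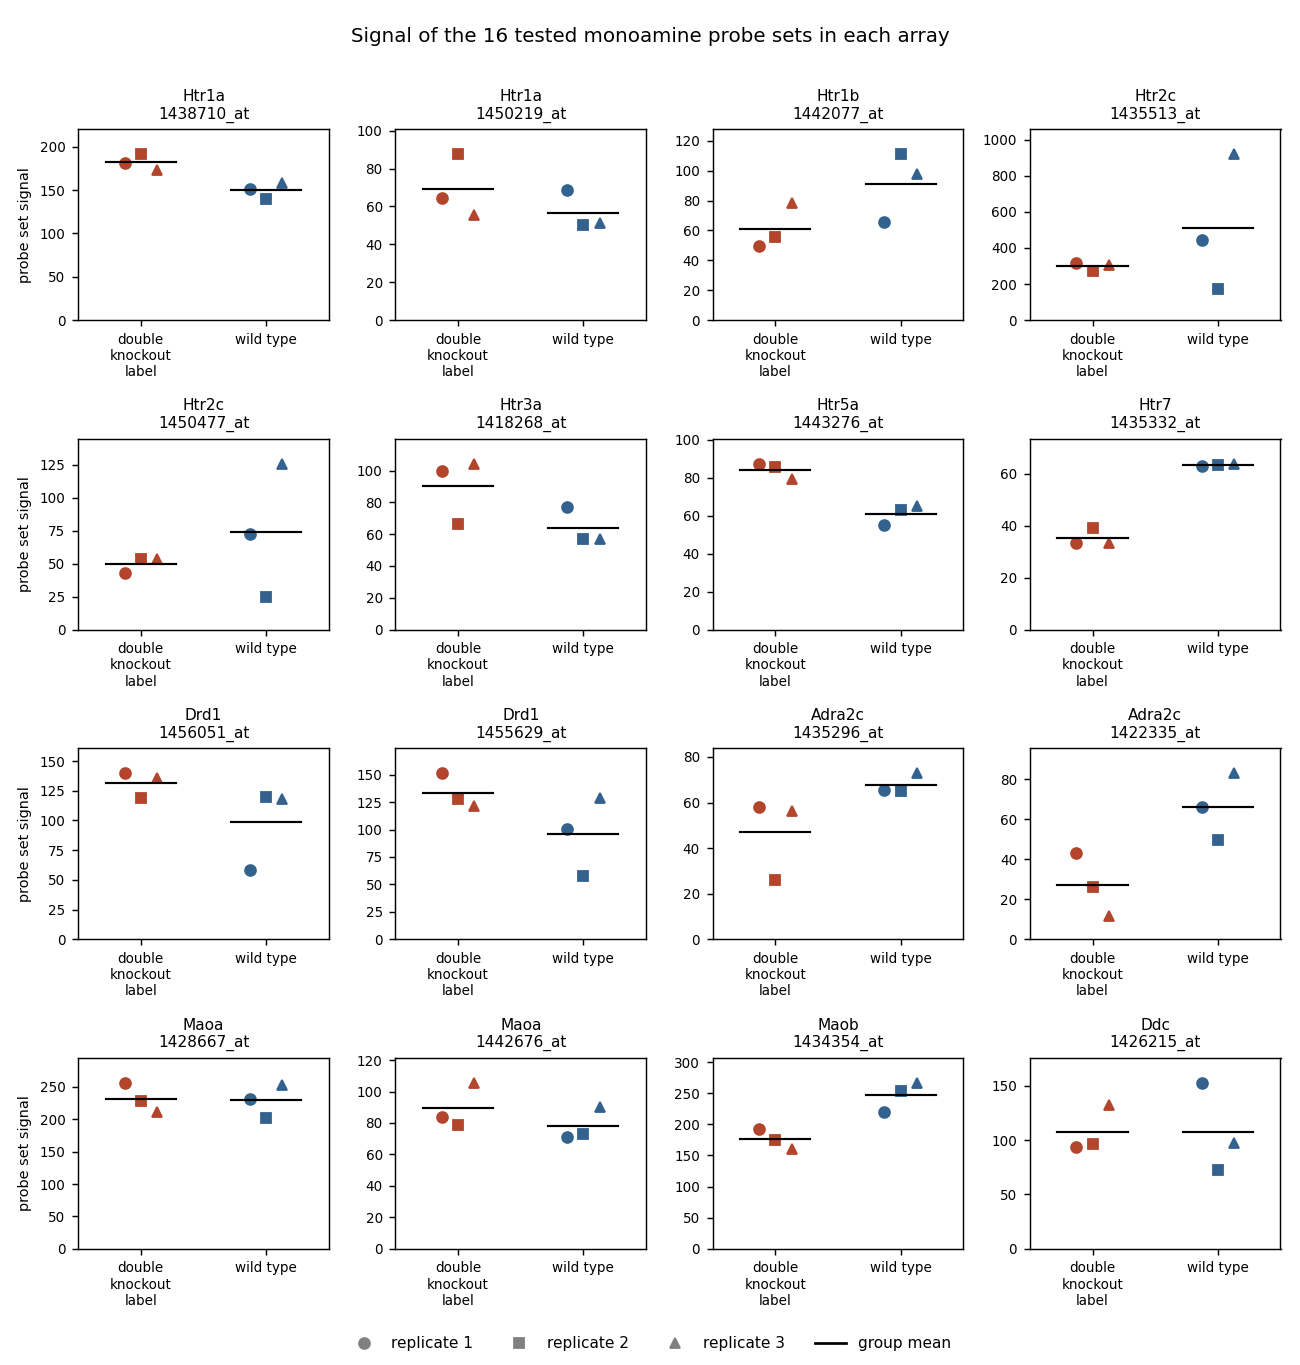
Signal of each tested monoamine probe set (vertical axis, linear from 0) in the 3 arrays labelled double knockout and the 3 wild type arrays, with symbols for replicate numbers and a line at the group mean. The Htr7 arrays stand apart, at 33.3 to 39.3 against 63.2 to 63.995, while the wild type Htr2c arrays run from 173 to 921.

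Among serotonin receptors, Htr7 had the smallest p. Its brighter probe set, 1435332_at, read 33.6, 39.3 and 33.3 in DKO-labelled replicates 1, 2 and 3, against 63.2, 63.5 and 63.995 in wild type. All 3 DKO-labelled arrays lay well below the wild type arrays, which were almost equal: 99.9% of tested probe sets had a wild type spread at least as large. The means were 35.4 ± 3.42 and 63.6 ± 0.402 (SD, n = 3 each), which differ by -0.63 in log2 (SE 0.15, 95% interval -0.96 to -0.30, limma adjusted p = 0.0812). It had rank 445 by p among all tested probe sets, and its adjusted p stayed above 0.05 in each alternative, between 0.0544 and 0.277. A dimmer Htr7 probe set below the filter read 10.6, 16.5 and 14.9 in the DKO-labelled arrays and 34.5, 8.59 and 22.8 in wild type, which overlap. With the pseudocount at 1 the Htr7 difference was -0.83, and at 64 it was -0.36.

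Htr1a and Htr5a, inhibitory serotonin receptors, were slightly higher in the DKO-labelled arrays, and neither passed. Htr1a probe set 1438710_at read 181, 191.5 and 173 in DKO-labelled replicates 1, 2 and 3, against 151, 139.6 and 159 in wild type. The groups did not overlap, and the log2 difference was 0.26 (SE 0.12, interval -0.01 to 0.52, limma adjusted p = 0.317). Its second probe set read 64.7, 87.7 and 55.3 in the DKO-labelled arrays and 68.6, 50.2 and 51.2 in wild type, with overlap and a log2 difference of 0.22 (limma adjusted p = 0.597), which was 0.0708 without double knockout replicate 2. Htr5a probe set 1443276_at read 87.4, 85.7 and 79.5 in the DKO-labelled arrays, against 55.0, 63.0 and 64.8 in wild type. Again the groups did not overlap, and the log2 difference was 0.38 (SE 0.14, interval 0.07 to 0.70, limma adjusted p = 0.219). The other Htr5a probe set lay below the filter, at 3.78, 27.7 and 21.8 in the DKO-labelled arrays and 14.3, 14.9 and 11.3 in wild type, and did not separate the groups.

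Htr1b, an inhibitory receptor found on axon terminals, was lower in the DKO-labelled arrays on both of its probe sets without passing. The tested one, 1442077_at, read 49.4, 55.6 and 78.7 in DKO-labelled replicates 1, 2 and 3, against 65.4, 111 and 97.7 in wild type. Only wild type replicate 1 fell inside the DKO-labelled range, and the log2 difference was -0.47 (SE 0.21, interval -0.93 to -0.01, limma adjusted p = 0.295). The second, below the filter, read 28.8, 21.1 and 23.1 in the DKO-labelled arrays and 29.3, 50.4 and 50.3 in wild type, where DKO-labelled replicate 1 and wild type replicate 1 almost met.

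Htr3a, the subunit of serotonin-gated channels and a mark of interneurons born in the caudal ganglionic eminence, read 99.8, 66.1 and 104 in DKO-labelled replicates 1, 2 and 3, against 77.2, 56.9 and 56.8 in wild type. DKO-labelled replicate 2 and wild type replicate 1 overlapped, and the log2 difference was 0.40 (SE 0.19, interval -0.02 to 0.82, limma adjusted p = 0.321). Of 9 genes listed here as markers of these interneurons, all measured and 8 tested, 3 had a higher mean in the DKO-labelled arrays. Whether each is particular to these cells in bulk cortex was not tested. Vip alone passed as higher (log2 0.55, limma adjusted p = 0.0453), and 0 passed as lower. Prox1, below the filter, was also higher in every DKO-labelled array than in any wild type array. Cck was lower in every one without passing (log2 -0.21, limma adjusted p = 0.331). The summed signal of the 9 ran from 8278 to 9581 in the DKO-labelled arrays and from 9010 to 9484 in wild type. Their part in the Htr3a difference was not tested, and in bulk tissue more cells of a type and more RNA per cell cannot be told apart.

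Htr2c, the phospholipase C-coupled receptor, varied more among wild type arrays than between the groups. Its brighter probe set read 317, 273 and 303 in DKO-labelled replicates 1, 2 and 3, against 443, 173 and 921 in wild type. The DKO-labelled arrays lay close together inside the wild type range, and only 0.226% of tested probe sets had a wild type spread as large. The log2 difference was -0.47 (SE 0.43, interval -1.43 to 0.50, limma adjusted p = 0.640). It stood at -1.07 without wild type replicate 2 (limma adjusted p = 0.0737) and at 0.09 without wild type replicate 3 (limma adjusted p = 0.916). Its second probe set read 42.6, 53.9 and 54.0 in the DKO-labelled arrays and 72.5, 24.4 and 126 in wild type, in the same order among wild type arrays. Its log2 difference was -0.28 (limma adjusted p = 0.755), and 0.14 without wild type replicate 3.

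Some transcripts that separate cortex from neighbouring tissue also varied among these arrays. Choroid plexus, which makes much Htr2c, is marked by Ttr, the thyroid hormone carrier transthyretin, which read 4697, 37.5 and 34.6 in DKO-labelled replicates 1, 2 and 3 and 71.0, 375 and 10347 in wild type. Of 10 choroid plexus markers 9 were measured, 5 of them tested, and 0 passed. Their summed signal ran from 192 to 4919 in the DKO-labelled arrays and from 251 to 11448 in wild type, and wild type replicate 3, the highest for Htr2c, was the highest for them too. DKO-labelled replicate 1 carried Ttr as well, with an Htr2c signal close to that of the other DKO-labelled arrays. The sums of 4919 and 11448 were mostly Ttr, and every other measured choroid plexus marker was highest in wild type replicate 3. Kl, Folr1 and Kcnj13 read 18.1, 29.8 and 75.1 in DKO-labelled replicate 1, against 149, 245 and 281 in wild type replicate 3. Kl and Folr1 were no higher in DKO-labelled replicate 1 than in replicate 2, while Kcnj13 was. Wild type replicate 1 had little Ttr and the next highest Htr2c. Of 8 meningeal markers, all measured, 0 passed, with sums of 814 to 970 in the DKO-labelled arrays and 917 to 1992 in wild type. Dcn among them read 206, 101 and 126 in the DKO-labelled arrays and 451, 173 and 907 in wild type. It had the wild type order of Htr2c (log2 -1.49, limma adjusted p = 0.161). Col1a1, Col1a2, Lum and Igf2 shared that order, and Slc22a6, Foxc1 and Aldh1a2 did not.

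Penk, an enkephalin precursor abundant in striatum, read 285, 178 and 185 in the DKO-labelled arrays and 724, 201 and 703 in wild type. Like Htr2c, it was lowest among wild type arrays in replicate 2. Drd2, an inhibitory dopamine receptor of striatal neurons that lay below the filter, read 10.7, 12.0 and 16.7 in the DKO-labelled arrays and 29.2, 12.1 and 47.8 in wild type, and it too was lowest in wild type replicate 2. Slc17a7, the vesicular glutamate transporter of cortical excitatory neurons, ran the other way, at 1494, 1775 and 1709 in the DKO-labelled arrays and 870.4, 1775 and 789 in wild type. Neurod6, Tbr1, Cux2, Rorb and Foxp2 were also highest among wild type arrays in replicate 2. Fezf2 did not share this, at 272, 267 and 269 in wild type, nor did Bcl11b, at 479, 478 and 742. Fezf2 was higher in every DKO-labelled array, at 366, 381 and 397, without passing (log2 0.48, limma adjusted p = 0.0586). Unlike Slc17a7, Neurod6 was lower in every DKO-labelled array (log2 -0.44). Of 12 striatal markers 10 were measured and 0 passed, with sums of 1810 to 2041 in the DKO-labelled arrays and 1918 to 2764 in wild type. Ppp1r1b, Rgs9, Gpr6, Rarb, Adcy5 and Gnal were also lowest among wild type arrays in replicate 2. Pde10a was highest there, at 252, 463 and 264 in wild type, as was the brighter Drd1 probe set. In the DKO-labelled arrays 3 of the 10 had a higher mean than in wild type. Of 9 excitatory neuron markers 8 were measured and 0 passed, with sums of 4345 to 4585 in the DKO-labelled arrays and 3239 to 5236 in wild type. The part of tissue makeup in the Htr2c and Drd2 values was not tested.

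**Figure D2:**
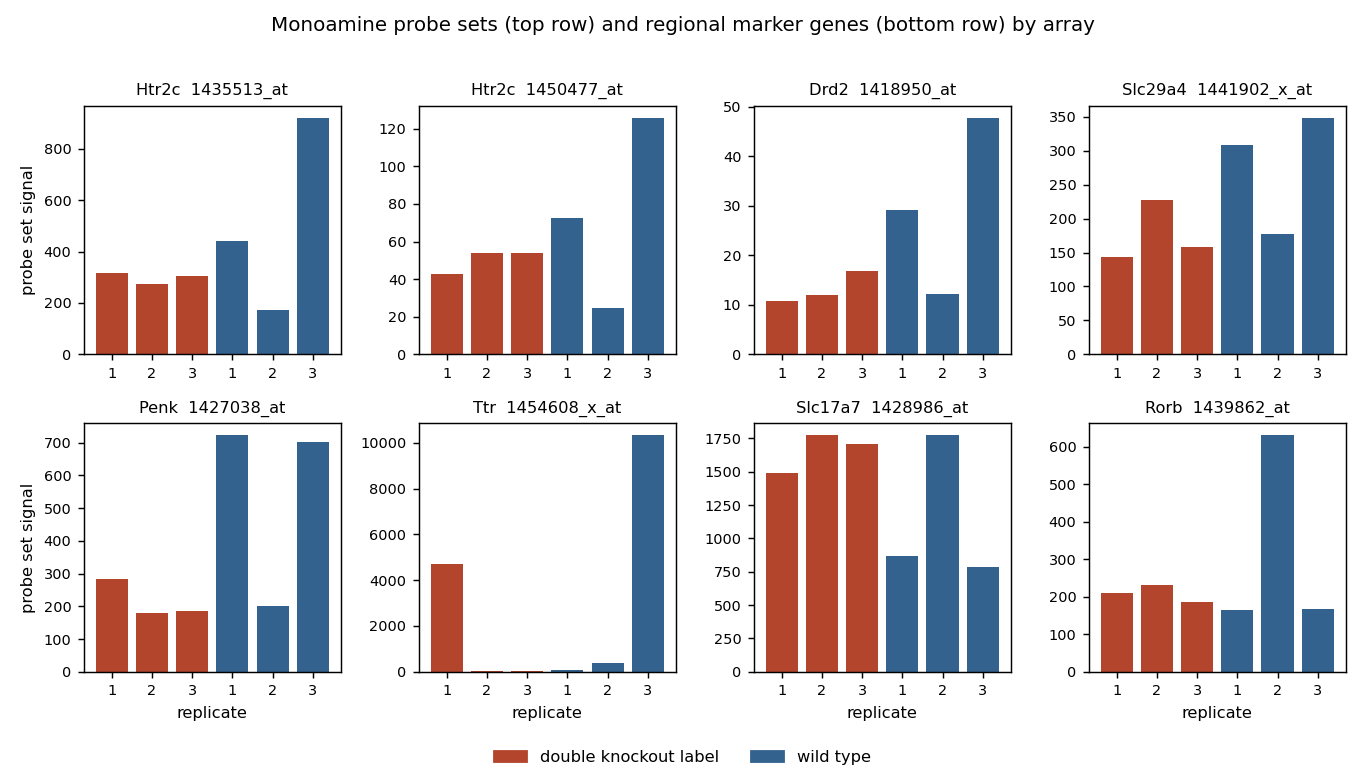
Signal (vertical axes, linear from 0) in the 3 arrays labelled double knockout and the 3 wild type arrays for Htr2c, Drd2 and Slc29a4 (top) and for markers of striatum (Penk), choroid plexus (Ttr) and cortical excitatory neurons (Slc17a7, Rorb). Wild type replicate 2 is the lowest wild type array for Htr2c, Drd2, Slc29a4 and Penk and the highest for Slc17a7 and Rorb.

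Drd1, the stimulatory dopamine receptor, was higher on average in the DKO-labelled arrays, and its probe sets disagreed on the wild type arrays. Probe set 1456051_at read 139.8, 119 and 136 in DKO-labelled replicates 1, 2 and 3, against 58.5, 120.1 and 118 in wild type. Probe set 1455629_at read 151, 127 and 122 in the DKO-labelled arrays, against 101, 57.6 and 129 in wild type. The low array was wild type replicate 1 on the first and wild type replicate 2 on the second, so the wild type order was not shared. The log2 differences were 0.41 (SE 0.22, interval -0.09 to 0.90, limma adjusted p = 0.391) and 0.47 (SE 0.23, interval -0.04 to 0.97, limma adjusted p = 0.337). The first stood at 0.12 without wild type replicate 1 (limma adjusted p = 0.708), and the second at 0.19 without wild type replicate 2 (limma adjusted p = 0.611).

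Adra2c, an inhibitory adrenergic receptor and autoreceptor, was the only adrenergic receptor above the filter. It was lower in the DKO-labelled arrays on both tested probe sets, and neither passed. Probe set 1422335_at read 43.2, 26.3 and 11.7 in DKO-labelled replicates 1, 2 and 3, against 66.0, 49.4 and 83.0 in wild type. The groups did not overlap, although DKO-labelled replicate 1 and wild type replicate 2 were close, and the log2 difference was -0.98 (SE 0.27, interval -1.58 to -0.38, limma adjusted p = 0.125). It was the largest difference among the 16, and it ran from -1.40 to -0.52 over the alternatives. Probe set 1435296_at read 58.1, 26.1 and 56.4 in the DKO-labelled arrays, against 65.4, 65.2 and 72.9 in wild type. There the low array was DKO-labelled replicate 2, and the groups differed by -0.46 in log2 (SE 0.22, limma adjusted p = 0.334) and by -0.19 without it. A pair of further Adra2c probe sets lay below the filter, with signals of 0.850 to 13.4 in the DKO-labelled arrays and 2.79 to 16.2 in wild type.

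The oxidases differed from each other. Maob, which degrades phenylethylamine and dopamine and is made in astrocytes and serotonin neurons, read 192, 175 and 160.3 in DKO-labelled replicates 1, 2 and 3, against 219.5, 253 and 267 in wild type. All DKO-labelled arrays lay below all wild type arrays. The means were 176 ± 15.9 and 246 ± 24.3 (SD, n = 3 each), which differ by -0.45 in log2 (SE 0.13, interval -0.73 to -0.17, limma adjusted p = 0.126). The adjusted p ran from 0.101 to 0.373 over the alternatives. Maob lies on the X chromosome. Without DKO-labelled replicate 2, the array with the female Xist signal, the difference was -0.45 (limma adjusted p = 0.311). The part of sex in the Maob difference was not tested.

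Maoa, the oxidase that prefers serotonin and noradrenaline and a neighbour of Maob on the X chromosome, did not follow it. Probe set 1428667_at read 256, 228 and 211 in DKO-labelled replicates 1, 2 and 3, against 231, 203 and 253 in wild type, which fully overlap. The log2 difference was 0.02, with an interval of -0.27 to 0.30 (limma adjusted p = 0.968). The dimmer probe set read 83.7, 78.6 and 106 in the DKO-labelled arrays and 71.3, 72.8 and 90.0 in wild type, a log2 difference of 0.16 with an interval of -0.19 to 0.51. The difference between the Maob and Maoa changes was not tested.

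All 9 astrocyte markers were measured and tested, and 4 of the 9 had a higher mean in the DKO-labelled arrays. At the threshold 0 were higher and 1 was lower: Aqp4, the water channel of astrocyte endfeet (log2 -0.96, limma adjusted p = 0.0139). Without passing, Gjb6 (log2 0.58) and Slc1a3 (log2 0.38) were higher in every DKO-labelled array than in any wild type array. Gfap (log2 -0.83) was lower in every one, also without passing. The summed signal of the 9 overlapped, at 12164 to 12677 in the DKO-labelled arrays and 11144 to 12864 in wild type. Slc1a2 made up much of it, at 5614 to 6214 and 4322 to 5861. The part of astrocytes in the Maob difference was not tested.

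**Figure D3:**
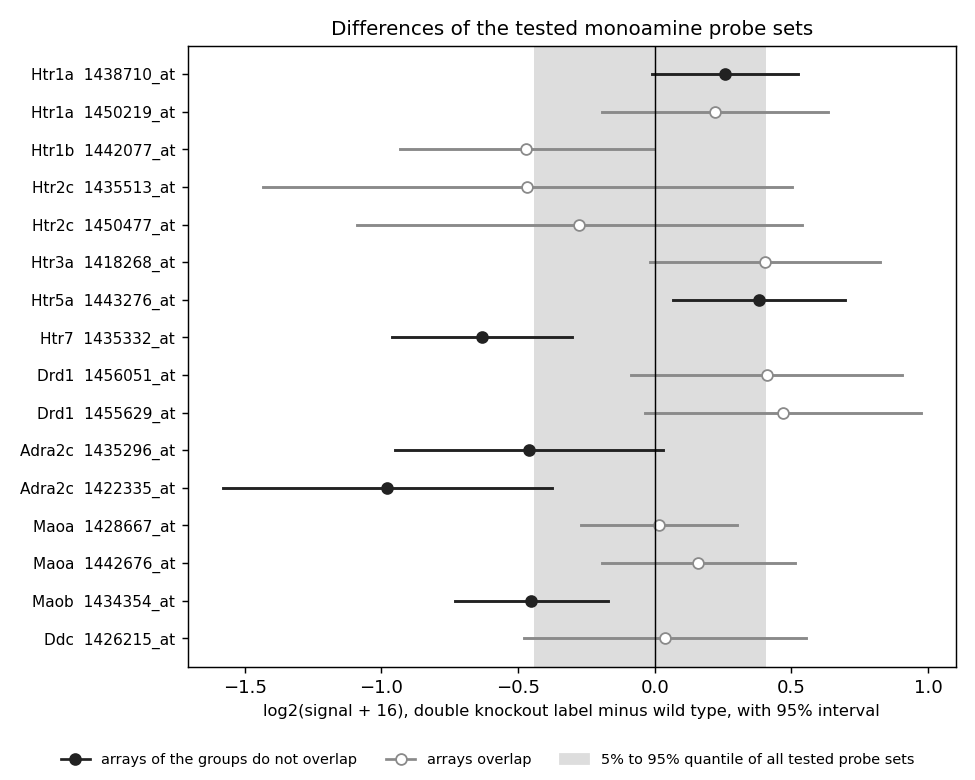
Log2 difference, DKO-labelled minus wild type (horizontal axis, log2 of signal + 16), with its 95% interval for each tested monoamine probe set, over a band from the 5% to the 95% quantile of all tested probe sets, -0.44 to 0.41. Filled points mark probe sets whose arrays do not overlap between the groups: Htr1a and Htr5a to the right, and Htr7, Adra2c (both) and Maob to the left.

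Ddc, which makes dopamine and serotonin from their amino acid precursors, read 93.4, 96.3 and 133 in DKO-labelled replicates 1, 2 and 3, against 153, 72.1 and 97.5 in wild type. The wild type range enclosed the DKO-labelled one, and the log2 difference was 0.04, with an interval of -0.48 to 0.55 (limma adjusted p = 0.959). It ran from -0.18 without wild type replicate 2 to 0.29 without wild type replicate 1. Th, the tyrosine hydroxylase that starts dopamine and noradrenaline synthesis and whose promoter window held the GCGNGGGCG match, lay below the filter, at 9.30, 24.3 and 16.8 in the DKO-labelled arrays and 22.7, 20.6 and 25.0 in wild type. Its groups overlapped through DKO-labelled replicate 2.

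The transporters were all below the filter, as were the other marks of the neurons that make monoamines. The dopamine transporter Slc6a3 read 1.76 to 2.79 in the DKO-labelled arrays and 1.22 to 15.1 in wild type, and the serotonin transporter Slc6a4 read 2.34 to 12.7 and 2.40 to 10.2. Of 10 markers of monoamine neurons, Slc6a3, Slc6a4, Th, Tph2 and Dbh among them, 8 were measured and 0 were tested, with sums of 88.8 to 162 in the DKO-labelled arrays and 91.9 to 138 in wild type. The noradrenaline transporter Slc6a2 had 4 probe sets, all dim, of which 3 were higher in every DKO-labelled array than in any wild type array. The brightest, 1447311_at, read 22.0, 20.2 and 24.9 in DKO-labelled replicates 1, 2 and 3, against 15.2, 17.9 and 8.35 in wild type. Signals this far below the array median were not tested in the fit, and 11.9% of all probe sets below the filter had groups that did not overlap.

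Below the filter there were 29 probe sets, and 15 genes had no other. Their signals ran from 0.441 to 52.4 with a median of 11.7, and 8 of the 174 values lay under the floor of 1. Of these 29, 6 did not overlap between the groups, 3 higher and 3 lower in the DKO-labelled arrays, which is 20.7% beside 11.9% of all probe sets below the filter. Htr1d, a relative of Htr1b, read 2.72, 1.02 and 7.66 in DKO-labelled replicates 1, 2 and 3 on probe set 1422290_at, against 21.1, 15.3 and 16.1 in wild type. That probe set separated the groups and the other 2 for Htr1d did not. Htr6, a stimulatory receptor, read 15.1, 15.0 and 18.0 in the DKO-labelled arrays and 28.1, 24.4 and 18.1 in wild type, with DKO-labelled replicate 3 and wild type replicate 3 nearly equal. Htr1f, Htr2b, Htr3b, Htr4, Htr5b, Drd3, Drd4 and Adra1b overlapped on all their probe sets. With no filter, 0 of the 45 passed in limma, beside 0.0222% of all probe sets, and the smallest adjusted p was 0.196. An unadjusted p under 0.05 was found in 8 of 45, beside 11.5%, and 12 of 45 did not overlap between the groups, beside 17.1%.

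**Figure D4:**
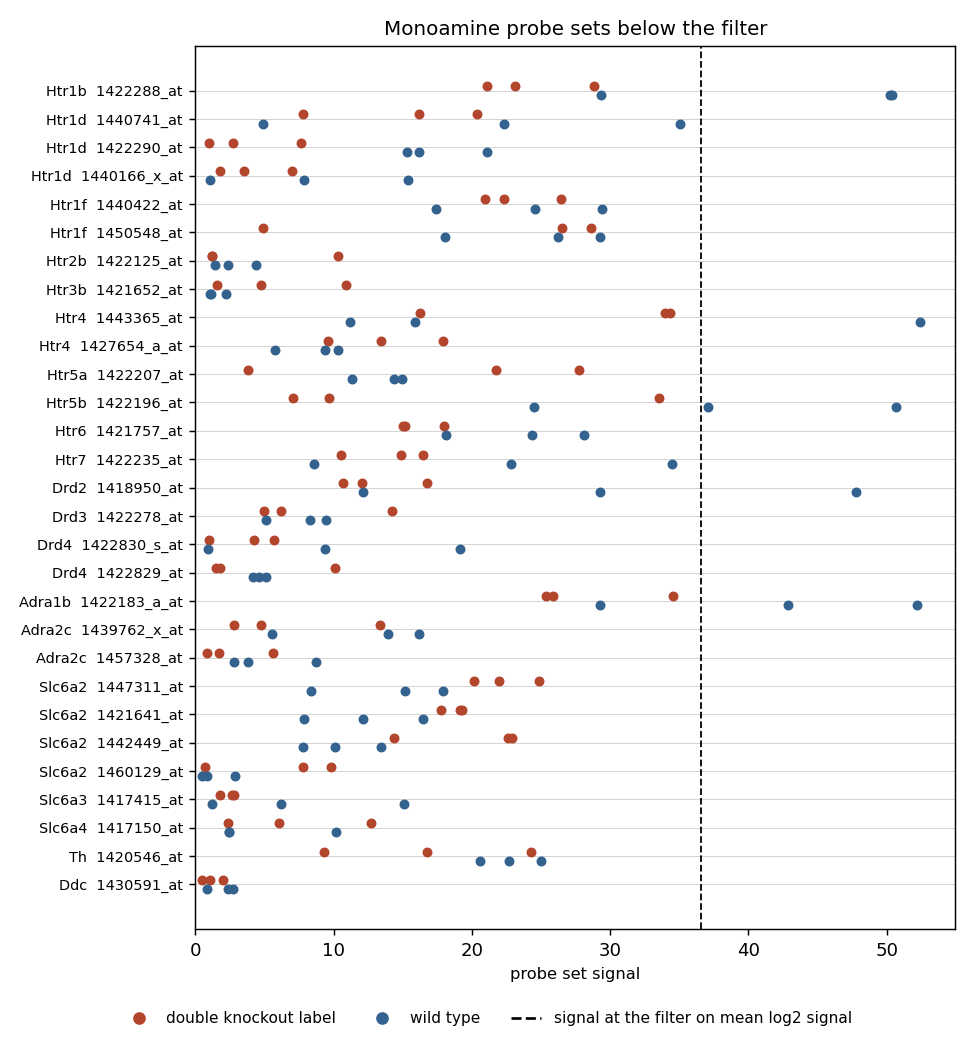
Signal (horizontal axis, linear) of the 29 monoamine probe sets below the filter, with the 3 arrays labelled double knockout above the 3 wild type arrays in each row and a dashed line at the signal of the filter, 36.6. Signals run from 0.441 to 52.4, and the groups separate in Htr1b, Htr1d (1422290_at), Htr6 and 3 Slc6a2 probe sets.

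Other genes of the pathway were read from a list of 52 enzymes, G proteins, effectors and receptor regulators, of which 48 had a probe set and 40 had a tested one. By limma 0 of their 79 tested probe sets passed, and 23 had an unadjusted p under 0.05, 14 higher and 9 lower in the DKO-labelled arrays, which is 29.1% beside 16.6% of all tested probe sets. Their median log2 difference was 0.01, and 21 of the 79 did not overlap between the groups, 14 higher and 7 lower, which is 26.6% beside 22.3% of all tested probe sets. The smallest p belonged to Qdpr, which regenerates the tetrahydrobiopterin cofactor of the amine hydroxylases. Qdpr probe set 1423664_at read 766, 448 and 583 in DKO-labelled replicates 1, 2 and 3, against 1014, 1100 and 893 in wild type. The groups did not overlap, and they differed by -0.75 in log2 (SE 0.17, limma adjusted p = 0.0743). It passed without double knockout replicate 1 (log2 -0.94, limma adjusted p = 0.0356), and a brighter Qdpr probe set differed by -0.47 with overlap (limma adjusted p = 0.227).

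Adcy9, an adenylyl cyclase downstream of stimulatory receptors, read 218, 293 and 281 in DKO-labelled replicates 1, 2 and 3 on probe set 1434454_at, against 157, 189 and 150.4 in wild type. The groups did not overlap (log2 0.62, SE 0.15, limma adjusted p = 0.0818), but its other 3 tested probe sets differed by 0.25, 0.23 and -0.06 and overlapped. Grk5, a kinase that desensitises receptors, read 56.7, 55.5 and 53.5 in the DKO-labelled arrays, against 99.9, 73.0 and 99.6 in wild type. The DKO-labelled arrays were all lower (log2 -0.57, SE 0.16, limma adjusted p = 0.123). S100a10, an adaptor of the receptor Htr1b that was picked here after its values were seen, read 413, 370 and 346 in the DKO-labelled arrays and 271, 182 and 300.4 in wild type. All its DKO-labelled arrays were higher (log2 0.58, SE 0.17, limma adjusted p = 0.138), and a second probe set did not overlap either (log2 0.44, limma adjusted p = 0.190).

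Slc29a4, a low-affinity monoamine transporter also strong in choroid plexus, showed the wild type pattern of Htr2c. Its brighter probe set read 143, 228 and 158 in DKO-labelled replicates 1, 2 and 3, against 308, 177 and 349 in wild type, and overlapped (log2 -0.59, limma adjusted p = 0.258). Its dimmer probe set read 34.4, 45.1 and 37.3 in the DKO-labelled arrays and 87.5, 24.2 and 94.9 in wild type, and passed without wild type replicate 2 (log2 -0.97, limma adjusted p = 0.0368).

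**Figure D5:**
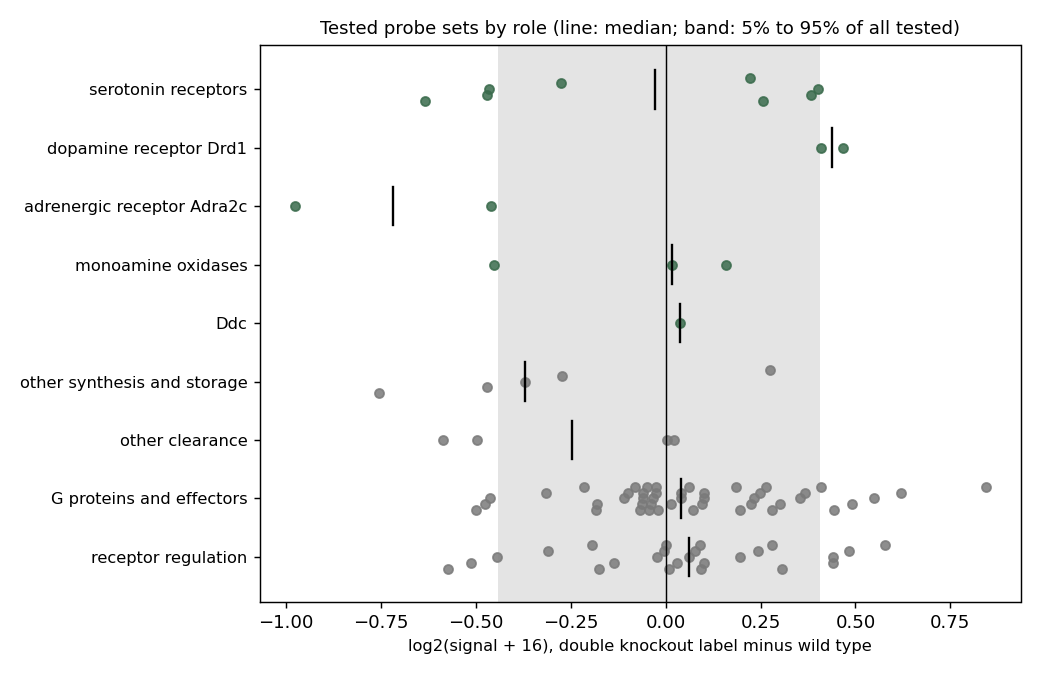
Log2 difference, DKO-labelled minus wild type (horizontal axis, log2 of signal + 16), of tested probe sets grouped by role, with the 34-gene set in green, other pathway genes in grey, and a line at each median. Serotonin receptors spread to both sides of 0 with a median of -0.03, and G proteins and effectors centre at 0.04.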

How the data were processed

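Each deposited value is the linear intensity of a probe set, already scaled when the authors made the table. Their software is not given in the sources used here. Each array had the same mean, 150.0, after 2% was trimmed at each end, which hides any change in total RNA. No pair of arrays held identical values. Array medians were 36.2 to 39.5, and precision is limited by having 6 arrays.

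Probe sets were named through the platform annotation, updated by gene number in a RefSeq table (GRCm38.p6). The 64 control probe sets were left out. Signals under 1 (4.35% of values) were set to 1, and log2(signal + 16) was fitted in limma 3.58.1 (R 4.3.3) with group as the only term and an intensity trend over the 22518 probe sets above the median, with two-sided Benjamini-Hochberg adjustment and a threshold of 0.05. On simulated data the fit recovered 7.2% of changes of 0.5 in log2 and 60% of changes of 1. A probe set that did not pass may therefore still have changed by such an amount. The members and lists were chosen with earlier results of these data known. By rule, array values are given for members with an unadjusted p under 0.05 or groups that do not overlap, and for Maob, Maoa and Htr2c, and of the other pathway genes the 3 with the smallest p. The remaining tested members, several dim ones, Egr1, Egr3, S100a10, Slc29a4 and marker genes were added. Alternatives covered pseudocount, scaling, filter, trend, array weights, replicate block and left-out arrays. Figures used matplotlib 3.10.9 in Python 3.11.15.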

Additional observations from a re-analysis of the deposited data

How the results depend on the processing

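With 16 alternatives, 0 monoamine probe sets passed in limma, also with each array left out (0 to 0), and the smallest adjusted p was 0.0544, for Htr7 with no intensity trend. Of 244 log2 differences of the 16 probe sets under the alternatives, 237 kept their direction. With 1 array left out, the Htr2c probe sets ran from -1.07 to 0.0910 and from -0.77 to 0.14, turning without wild type replicate 3. The brighter Maoa probe set turned to -0.0167 with array weights and ran from -0.0641 to 0.0864 with 1 array left out, turning without double knockout replicate 1 and without wild type replicate 2. Ddc ran from -0.18 to 0.29, turning without double knockout replicate 3 and without wild type replicate 2. The causes were not tested. Among other pathway genes 0 to 1 passed with an array left out: 1 (Qdpr) without double knockout replicate 1 and 1 (Slc29a4) without wild type replicate 2. The 229 probe sets called in the whole table became 10 with no filter, 131 with no intensity trend, 12 with wild type replicate 1 and double knockout replicate 2 both dropped, and 34 to 292 with 1 array left out. The low values were without double knockout replicates 3 (34), 2 (53) and 1 (143) and wild type replicate 1 (97).

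The groups share replicate numbers, but deviations of same-numbered arrays correlated at -0.15, 0.00129 and -0.10, so the numbers were not taken as pairs. With the replicate block 182 probe sets passed in the whole table and 0 among the monoamine genes, where Htr7 had an adjusted p of 0.144 and Maob of 0.208. Of the 16 tested probe sets 4 passed the stricter filter at the 75% quantile, so the others have no value there.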
